A study of Mus musculus with 6 samples.

Results

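The BCL-2 family is the group of proteins that decides at the outer membrane of mitochondria whether a cell enters apoptosis. Its members were taken as 10 named genes, and all probes that carry 1 of these symbols in the deposited annotation were used, which gave 14 of the 55681 probes that are not controls and 10 of the 24239 gene symbols on the array. The samples were livers of male B6C3F1 mice aged 7 weeks. The control group of 3 mice was given corn oil by mouth, and the TCE group of 3 mice was given trichloroethylene, an industrial solvent, in corn oil for 5 days, with a daily dose of 1000 mg/kg b.w., so that both groups share the oil. Each mouse was measured on an array of its own, in whole liver tissue, in which fewer cells of a type and less RNA per cell cannot be told apart. The number of arrays limits the precision.

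Survival members (Bcl2, Bcl2l1 and Mcl1) hold back cell death by binding the other members. The effectors Bax and Bak1 open pores in the outer mitochondrial membrane, through which cytochrome c escapes and sets off the caspases. BH3-only members (Bid, Bad, Bcl2l11, Bmf and Bbc3) respond to stress signals by neutralizing the survival members or by activating the effectors, and in hepatocytes Mcl1 and Bcl2l1 are known to be needed for survival.

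The question put to the data was whether transcripts of survival, effector and BH3-only members differed between the liver of control mice and that of mice exposed to TCE. A probe was called detected when every array of either group put it well above background. Of the 10 genes, 9 were detected, with 12 of the 14 probes, and these were above background on all 6 arrays. The exception was Bcl2l11. By limma, which fits each probe and borrows information on the spread from the others, 0 of the 9 genes had an adjusted p no higher than 0.05, and 0 were past the threshold, which also asks for a fold change of at least 2. Among all 13284 detected genes, 1.80% had a higher and 0.587% a lower signal with TCE at that adjusted p, and 1.73% were past the threshold in either direction. At an unadjusted limma p under 0.05, Mcl1 was the 1 member on the higher side, where 12.0% of all genes lay, and Bmf and Bad were the 2 members on the lower side, where 7.11% of all genes lay. The methods' t-test without adjustment gave 2 members with a p of 0.05 or less, Mcl1 and Bmf, and after Benjamini-Hochberg adjustment it gave 0. The share of all genes at that unadjusted p is not given here, so the count of 2 is not read as a result about the members. The groups did not overlap for the same 3 members that had a limma p under 0.05: Mcl1 had all TCE mice above all control mice, as had 17.1% of all genes, and Bmf and Bad had all TCE mice below, as had 10.8% of all genes.

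Ordered by role, the fitted log2 fold change of the TCE group against the control group was above 0 for 3 of 3 survival members, with a median of 0.27, and for 2 of 2 effectors, with a median of 0.20. It was below 0 for 3 of the 4 measured BH3-only members, with a median of -0.46. The median over all detected genes was 0.021. These signs were the same with another scaling and another background correction, but without control mouse 2 that of Bcl2 turned negative, and the other probe of Bad had the opposite sign. With that probe in place of the brighter one, 2 of the 4 BH3-only members lay below 0, with a median of -0.11. Because no member passed the adjusted test, the order by role is a description, and a difference between the roles was not tested. Limma's 95% interval held no change for 6 of the 9 genes, and for 8 of the 9 it lay wholly within a fold change of 2 in either direction.

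**Figure D1:**
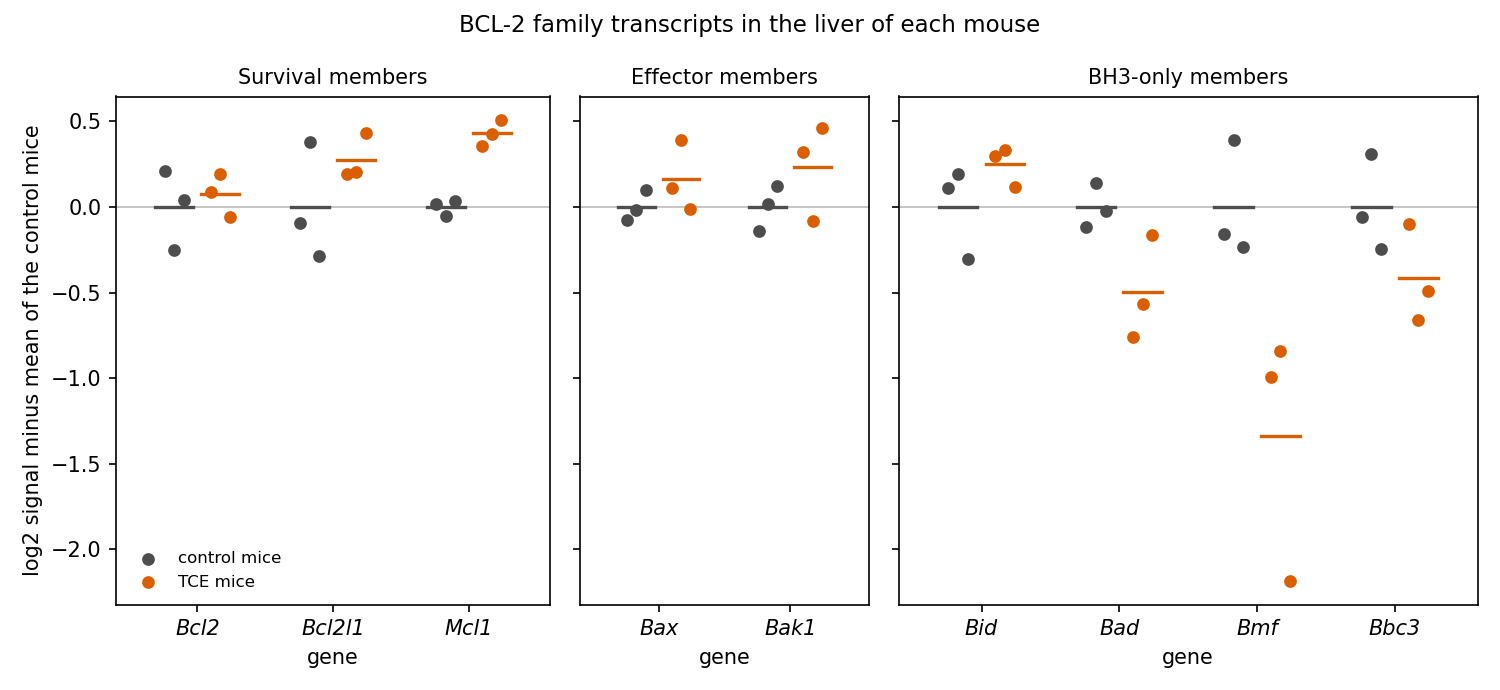
Log2 signal of each detected BCL-2 family gene in each mouse, minus the mean of the 3 control mice for the same probe. Points are single mice in the order 1 to 3, horizontal lines are group means, and each gene is shown by its brightest probe. Mcl1 is the gene with all TCE mice above all control mice, Bad and Bmf are the genes with all TCE mice below, and the lowest point is Bmf in TCE mouse 3.

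Mcl1 is a survival member with a short-lived protein that sequesters Bak1 and several BH3-only members. Its brighter probe, on chromosome 3 from 95466855 to 95466914 (mouse build mm9), had log2 signals of 12.99, 12.93 and 13.01 in control mice 1, 2 and 3 and of 13.33, 13.41 and 13.49 in TCE mice 1, 2 and 3. Each TCE mouse lay above each control mouse, and within both groups the mice lay close together. The group means were 12.98 ± 0.045 and 13.41 ± 0.078 (SD, n = 3 each; exact permutation test, two-sided, p = 0.1, the smallest that 3 mice against 3 allow). The difference of 0.43 on the log2 scale had a standard error of 0.11 and equals a fold change of 1.35 with a 95% interval from 1.13 to 1.61 (limma adjusted p = 0.114, from an unadjusted p of 0.00598). Mcl1 had the lowest limma p of the family, at place 783 among the 13284 detected genes. Its standard deviation within groups, 0.064 on the log2 scale, was below the median of 0.20 over all detected genes.

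The other Mcl1 probe, on chromosome 3 from 95465543 to 95465602, gave 9.70, 9.47 and 9.28 in the control mice and 10.02, 9.66 and 10.12 in the TCE mice. TCE mouse 2 lay just below control mouse 1, and the other TCE mice lay above all controls, so that the groups overlapped by this pair of mice. Its log2 fold change was 0.45, close to that of the brighter probe, and the standard error was 0.18 (limma adjusted p = 0.253).

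Bcl2l1 encodes BCL-XL, a survival protein of the mitochondrial membrane. Its brighter probe, on chromosome 2 from 152606404 to 152606463, read 12.69, 13.16 and 12.50 in control mice 1, 2 and 3 and 12.98, 12.99 and 13.21 in TCE mice 1, 2 and 3. Control mouse 2 lay among the TCE mice, and the groups overlapped. For this probe the log2 fold change was 0.27 with a 95% interval from -0.19 to 0.74 (limma adjusted p = 0.513). A second probe, from 152655185 to 152655244, gave 0.23 with a 95% interval from -0.36 to 0.82.

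Bcl2, the founding survival member, had a single probe, on chromosome 1 from 108608970 to 108609029. Its log2 signals were 5.75, 5.29 and 5.58 in the control mice and 5.63, 5.73 and 5.49 in the TCE mice. All TCE values fell inside the range of the control values. On every array the signal was well above background, but not far from it: the lowest signals called so lay between 4.54 and 5.02 on the 6 arrays. The fitted difference was 0.073 on the log2 scale with a 95% interval from -0.30 to 0.45 (limma adjusted p = 0.844), and without control mouse 2 it was -0.051.

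Among the effectors, Bax, which moves from the cytosol to mitochondria when activated, was measured by a probe on chromosome 7 from 52717122 to 52717181. Its log2 signals were 10.59, 10.65 and 10.76 in control mice 1, 2 and 3 and 10.77, 11.05 and 10.65 in TCE mice 1, 2 and 3. TCE mouse 2 was the highest of the 6 mice, TCE mouse 3 lay among the controls, and the groups overlapped. The log2 fold change was 0.16 with a 95% interval from -0.18 to 0.51 (limma adjusted p = 0.600).

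Bak1, which resides in the mitochondrial membrane, was measured on chromosome 17 from 27156807 to 27156866. The log2 signals were 9.58, 9.74 and 9.84 in the control mice and 10.04, 9.64 and 10.19 in the TCE mice. TCE mice 1 and 3 lay above all controls, whereas TCE mouse 2 lay below 2 of them. Bak1 had a fitted log2 difference of 0.23 with a 95% interval from -0.18 to 0.65 (limma adjusted p = 0.529). Bax and Bak1 thus did not have their highest value in the same TCE mouse.

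Bmf, a BH3-only protein that binds dynein light chains of the cytoskeleton, had the largest fitted difference of the family. Its probe lies on chromosome 2 from 118354496 to 118354555, and its log2 signals were 8.98, 9.53 and 8.90 in control mice 1, 2 and 3 and 8.15, 8.29 and 6.95 in TCE mice 1, 2 and 3. Each TCE mouse lay below each control mouse, with TCE mouse 3 well below the other TCE mice. The group means were 9.14 ± 0.34 and 7.80 ± 0.74 (SD, n = 3 each; exact permutation test, two-sided, p = 0.1). On the log2 scale the difference was -1.34 with a standard error of 0.38, and the ratio of the TCE group to the control group had a 95% interval from 0.208 to 0.750 (limma adjusted p = 0.149, from an unadjusted p of 0.0116). A difference of this size or more in either direction was fitted for 307 detected genes, or 2.31%. The standard deviation of Bmf within groups was 0.57, against the median of 0.20 over all genes. By the methods' t-test without adjustment it had a fold change above 2 and a p of 0.0461, and it is among the genes that the study listed as changed on these same samples, so that its place in that list is not independent evidence. Without TCE mouse 3 the log2 fold change was -0.92 (limma adjusted p = 0.152).

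Bad, which binds Bcl2l1 and is held inactive in the cytosol when phosphorylated, was read differently by its probes. The brighter probe, on chromosome 19 from 7026323 to 7026382, gave 11.84, 12.10 and 11.94 in control mice 1, 2 and 3 and 11.20, 11.40 and 11.79 in TCE mice 1, 2 and 3. All TCE mice lay below all control mice, although TCE mouse 3 came close to control mouse 1. Its log2 fold change was -0.50 and the standard error 0.18 (limma adjusted p = 0.228; exact permutation test, two-sided, p = 0.1).

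The other Bad probe gave 7.89, 7.63 and 7.33 in the control mice and 7.85, 8.16 and 7.40 in the TCE mice. The groups overlapped, and TCE mouse 2 was the highest of all. This probe had a log2 fold change of 0.19 with a 95% interval from -0.38 to 0.76, of the opposite sign to that of the brighter probe (limma adjusted p = 0.723). Its 60 bases are annotated from 7016918 to 7017403 of chromosome 19, a stretch of 486 bases, whereas the brighter probe covers 60 bases without a gap. Which forms of the Bad transcript each probe detects was not tested, and the positions of exons and untranslated regions in this build were not used here.

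Since the results turn on few probes, the sequences of those for Mcl1, Bmf and Bad are shown by the first 30 of their 60 bases, as the deposited scanner files list them; the Bad pair is included because its probes differ in sign.
Mcl1, brighter probe: gctgcttggaaagatggctctcagcaaaat
Mcl1, other probe: tgcagcttctctagttagaaatgtatttct
Bmf: catgtgtaaatatcctctcatccatcaagt
Bad, brighter probe: gtcataactggggacccgaggtcgcgagaa
Bad, other probe: tggagaccagcagcccagagtatgttccag

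Bbc3, also called PUMA, is a BH3-only protein under the control of p53. Its probe, on chromosome 7 from 16903403 to 16903462, read 10.62, 10.98 and 10.43 in control mice 1, 2 and 3 and 10.57, 10.02 and 10.18 in TCE mice 1, 2 and 3. TCE mice 2 and 3 lay below all controls, and TCE mouse 1 lay among them. The fitted log2 difference of Bbc3 was -0.42 with a 95% interval from -0.92 to 0.085 (limma adjusted p = 0.357).

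Bid, which links death receptors to mitochondria once caspase-8 has cleaved it, was measured on chromosome 6 from 120843464 to 120843523. The log2 signals were 9.30, 9.39 and 8.89 in the control mice and 9.49, 9.53 and 9.31 in the TCE mice. Control mouse 3 was the lowest, and TCE mouse 3 lay between control mice 1 and 2. The log2 fold change was 0.25 with a 95% interval from -0.15 to 0.65 (limma adjusted p = 0.485), which made Bid the 1 measured BH3-only member with a value above 0.

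Bcl2l11, which encodes the BH3-only protein BIM, had 2 probes, annotated on chromosome 2 from 127972893 to 127983988 and from 127954736 to 127955417. Neither was well above background in any mouse. No fold change can therefore be given for Bcl2l11, and its absence from the counts above says nothing about its level in these livers.

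**Figure D2:**
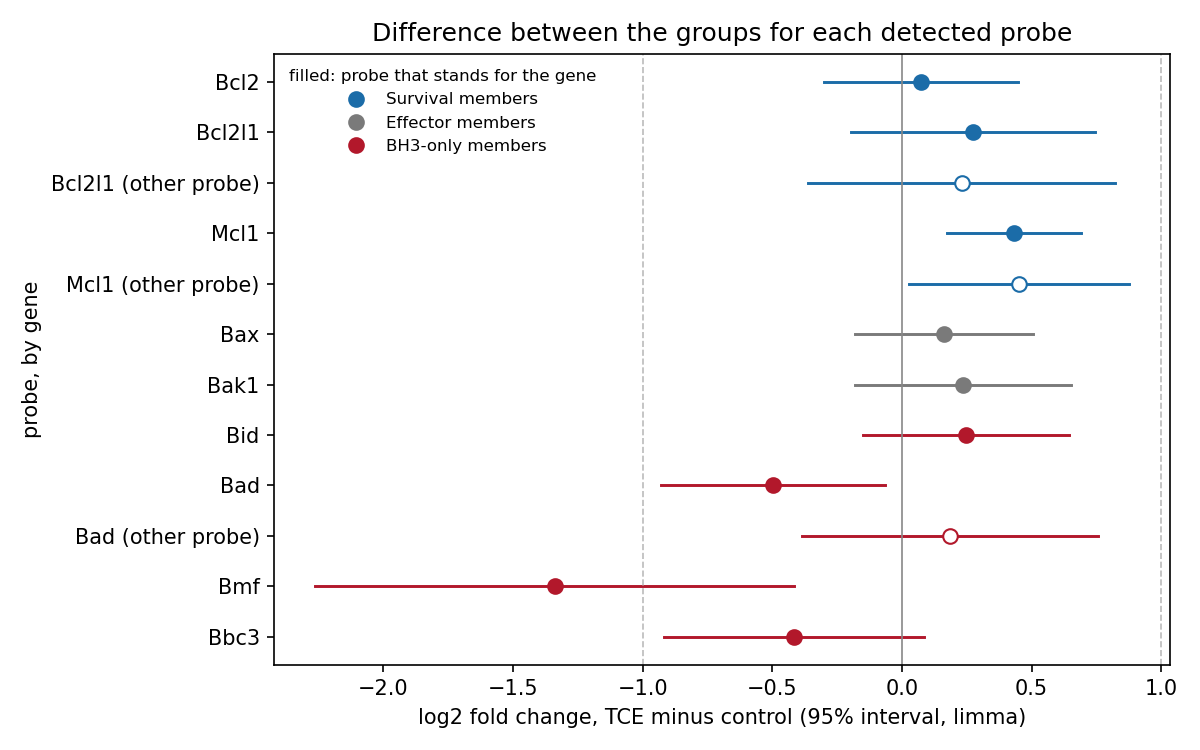
Log2 fold change of the TCE group against the control group for the 12 detected probes of the BCL-2 family, with limma's 95% interval, coloured by role. Filled points are the probes that stand for a gene, open points are the other probes of Bcl2l1, Mcl1 and Bad, and dashed lines mark a fold change of 2 in either direction. Bmf has the lowest value, -1.34, and the Bad probes lie on opposite sides of 0.

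Control mouse 1 was hybridized on a slide of its own and the other 5 mice on a second slide, so the family was also compared with the slide as a block, which rests on the 5 mice of the second slide. The log2 difference was then 0.44 for Mcl1 (limma adjusted p = 0.231), -1.42 for Bmf (limma adjusted p = 0.260) and -0.55 for Bad (limma adjusted p = 0.311). Within the second slide alone, which leaves out control mouse 1, the changes had the same size, with limma adjusted p of 0.240, 0.269 and 0.319. The number of members with an adjusted p of 0.05 or less was 0 in both cases.

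The genes whose signals over the 6 mice, each centred on its own mean, came nearest to those of a member were found for the 3 members with the lowest p, among 12474 other gene symbols. Nearest to Mcl1 were Ints12, a subunit of the Integrator complex, and Srxn1, the antioxidant enzyme sulfiredoxin, with root mean square differences of 0.027 and 0.039 on the log2 scale. Nearest to Bad were Leap2, a peptide secreted by the liver, and Adck1, both at 0.074. For Bmf the search gave Pcdh18, a protocadherin, and Ptpru, a receptor phosphatase, but 0 of the 3 TCE mice had either gene well above background. Their distances and their rank as nearest are therefore not given as a result. The distance is not scaled by the spread of a gene, and it is not compared between members. Pcdh18 was at least 2.25-fold lower in TCE mice and Ptpru at least 1.42-fold lower. Both were detected through the control group alone and were picked for their likeness to Bmf, so that the direction is set by the choice and no test is given. For these limits the value of a TCE mouse was the dimmest signal that its array called well above background, unless the probe itself was brighter.

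Genes that act beside the family were counted in lists, beside a share over all detected genes of 2.39% at a limma adjusted p of 0.05 or less and of 19.1% at an unadjusted p under 0.05, in either direction. Of 16 other relatives of Bcl2, 14 had a matching symbol and 9 were detected, with a median log2 fold change of 0.054. By limma 0 of them reached an adjusted p of 0.05, and 2 of the 9, both lower with TCE, had an unadjusted p under 0.05. The relatives with the lowest p were Bcl2a1d, a survival member of blood cells, with -0.53 (limma adjusted p = 0.114), and Bok, an effector-like member, with -0.44 (limma adjusted p = 0.276). Pmaip1, which encodes the BH3-only protein NOXA, and Hrk were not detected. Downstream of the family, 10 of 11 genes of mitochondrial release and the apoptosome were detected, with a median of 0.030, 0 of the 10 at that adjusted p and 1, on the higher side, at the unadjusted p, and those with the lowest p were Mtch2, a mitochondrial partner of Bid, with 0.37 (limma adjusted p = 0.162), and Endog, a mitochondrial nuclease, with 0.24 (limma adjusted p = 0.352). The 7 detected of 9 other caspases had a median of -0.035 and 0 genes under either p, with Casp8, which cleaves Bid, at 0.25 (limma adjusted p = 0.461).

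Among the inhibitor of apoptosis proteins, 7 of 10 were detected, with a median of -0.043, and 1 higher and 1 lower gene had an unadjusted p under 0.05. Birc5, which also acts in mitosis, rose by 2.25 on the log2 scale (limma adjusted p = 0.00111), while Birc6 had -0.37 (limma adjusted p = 0.207). Of the death receptor pathway, which reaches the family through Bid, 9 of 12 genes were detected, with a median of 0.10, 0 genes at an adjusted limma p of 0.05 and 3 of the 9 at an unadjusted p under 0.05 (2 higher and 1 lower), and Fas had 0.81 (limma adjusted p = 0.0621) and Tnfrsf1b 0.61 (limma adjusted p = 0.144). Of the 21 transcriptional regulators of the family 19 were detected, with a median of 0.27, and 6 of the 19, all higher with TCE, had an unadjusted limma p under 0.05. Jun was past the threshold with 2.52 (limma adjusted p = 0.0287), a call lost when any mouse but control mouse 3 was left out (limma adjusted p up to 0.115), with Ddit3, a stress factor, at 1.06 (limma adjusted p = 0.0661). The 24 detected of 26 protein regulators, such as 14-3-3 proteins that hold Bad in the cytosol, had a median of 0.065, 0 genes at the adjusted p and 1 higher and 1 lower gene at the unadjusted p, with Ywhag at 0.35 and Huwe1, which marks Mcl1 for degradation, at -0.29 (limma adjusted p = 0.201 and 0.271). Of 20 other p53 targets, 17 were detected, with a median of 0.28, and 8 of the 17, all higher with TCE, had an unadjusted limma p under 0.05. The 8 include Polk, named for this reason only, which was detected through the TCE group alone, with 2 of 3 control mice well above background. The filter thus favoured its direction. Gdf15 rose by 2.81 (limma adjusted p = 0.0123; 0.0538 without control mouse 1), with Cdkn1a at 1.99 (limma adjusted p = 0.0567). After Benjamini-Hochberg adjustment the methods' t-test gave 1 gene of these lists, Birc5. Bax and Bbc3, which are among the p53 targets within the family, had fitted values of opposite sign, and both 95% intervals held no change.

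The tissue label was checked with marker genes. All 9 hepatocyte markers with a matching symbol were detected, and their summed signal on the linear scale was 1846935, 1826245 and 1667554 in control mice 1, 2 and 3 and 1726745, 1830478 and 1803640 in TCE mice 1, 2 and 3, with Serpina1a as the brightest probe. Alb, Apoa2 and Serpina1a, the 3 with the highest signal, made up 65.0% to 69.4% of the sum and lay within the 24 brightest probes of each array, where quantile normalization sets the values alike, so that similar sums are largely fixed by it. Markers of other cells were counted where the fitted value was lower in the TCE group. These were 7 of 8 detected genes for Kupffer cells and macrophages, 6 of 6 for endothelial cells and 5 of 7 for stellate cells. For T and NK cells they were 3 of 3 and for cholangiocytes 3 of 3. For neutrophils they were 1 of 4 and for B cells 0 of 1. Of all these markers, 0 had a limma adjusted p of 0.05 or less. The stellate cell count takes in Reln, detected through the control group alone, with 2 of 3 TCE mice well above background. The filter thus favoured its direction. The share of all genes with a lower fitted value is not given here. Counts by direction include values close to 0, such as -0.024 for Pecam1, and are not read as a result about the cells. At an unadjusted limma p under 0.05, where 19.1% of all genes lay, there were 2 hepatocyte markers (Apoa1 with a log2 difference of -0.31 and Tat with 0.36), 1 neutrophil marker (S100a8, higher by 1.19; limma adjusted p = 0.0886), 1 stellate cell marker (Lrat with -1.35; limma adjusted p = 0.0676) and 1 T cell marker (Cd3e with -0.63; limma adjusted p = 0.275). These markers, and Alas2, are named because of their values. Of the red blood cell markers 4 of 4 were lower, and Alas2 fell by 0.91 on the log2 scale (limma adjusted p = 0.0215). Over the 6 fits without 1 mouse its adjusted p ran from 0.0444 to 0.112 and was above 0.05 in 5, all but the fit without TCE mouse 3.

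The sums of the other lists are given mouse by mouse, for control mice 1, 2 and 3 and then TCE mice 1, 2 and 3, and take in markers that were not detected. Signals of different probes do not rank genes by abundance. The summed T and NK cell signal was 16283, 19282 and 19926 in the control mice and 11239, 5981 and 15885 in the TCE mice. Cd4 was the brightest probe, while Cd3d, Cd3g, Cd8a, Klrb1c and Ncr1 were not above background. In control mouse 1 Cd4 had a log2 signal of 13.81, against 9.95 for Nkg7 and 9.79 for Cd3e. The sum thus follows mainly the Cd4 probe and is not a measure of these cells as a whole. The summed red blood cell signal was 126072, 90395 and 88129 in the control mice and 67991, 33342 and 106259 in the TCE mice, with Hba-a1 as the brightest probe. Both sums were lowest in TCE mouse 2.

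The endothelial sum was 23409, 22940 and 23359 in the control mice and 12838, 24948 and 22644 in the TCE mice, with Clec4g as the brightest probe. The sum for Kupffer cells and macrophages was 21057, 20596 and 19068 against 16366, 19456 and 20741, with Csf1r as the brightest probe. Both were lowest in TCE mouse 1. The stellate cell sum was 3264, 2958 and 2247 against 2921, 3402 and 1855, with Col3a1 as the brightest probe and Des not above background. The cholangiocyte sum was 613, 633 and 490 against 540, 540 and 386, with Spp1 as the brightest probe and Cftr, Epcam and Krt7 not above background. Both were lowest in TCE mouse 3. The neutrophil sum was 1148, 1707 and 1678 against 1488, 1605 and 2004, with Elane as the brightest probe and Mpo and Retnlg not above background. The B cell sum was 150, 167 and 105 against 127, 172 and 184, with 1 of 5 markers detected. These last sums were lowest in control mice. The part of these cells in the values of the BCL-2 family was not tested.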

How the data were processed

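Each sample was the liver of 1 mouse on 1 one-colour array. According to the submitters' notes the spots were read with Agilent Feature Extraction 10.7.1.1. The scanner files that the authors deposited hold for each spot an intensity corrected for background, its raw mean and local background intensity, and flags. The deposited annotation table holds the authors' group means of intensity and of quantile-normalized log2 values, with no value for single mice. Control and outlier spots were left out, intensities put on the log2 scale, the spots of a probe averaged and the arrays quantile normalized. Limma 3.58.1 (in R 4.3.3, with data.table (1.17.8) and statmod (1.5.0); two-sided, Benjamini-Hochberg) compared the groups over 22731 probes, those that each array of either group put well above background, at an adjusted p of 0.05 and a fold change of 2. A gene was represented by the brightest of its detected probes. Between 23537 and 24965 probes per array were well above background, and 0 spots were saturated. The procedure was tested on simulated data.

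All members were named. Of each other list of related genes the rule names up to 4 genes past the threshold and, where fewer than 2 pass, also the 2 with the lowest limma p, and for 3 members the 2 genes with the nearest pattern, RIKEN names left out; it does not cover cell type markers, and 1 gene it names is not reported here. The members and lists were chosen with earlier results of these data known. Alternatives changed the scaling, background correction, filter, blocks, weights, test, probe and mice.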

Additional observations from a re-analysis of the deposited data

How the results depend on the processing

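The count of members with an adjusted p of 0.05 or less and the count past the threshold were 0 under each alternative run except the methods' t-test without adjustment, which by construction corrects for no other probe and gave 2 members (Mcl1 and Bmf) and 1 member (Bmf). Shares of all genes under that unadjusted test are not given, so these counts are not read as a result about the members. The lowest adjusted p of a member under any other setting was 0.0558, for Mcl1 with normexp background correction. Of the fitted changes 2 reversed: Bcl2 was -0.051 without control mouse 2, and the other Bad probe gave 0.19. With each mouse left out, Bcl2 ran from -0.051 to 0.18, Mcl1 ran from 0.39 to 0.47, Bmf from -1.59 to -0.92, Bad from -0.66 to -0.37, Bbc3 from -0.57 to -0.26, Bax from 0.048 to 0.25, Bid from 0.097 to 0.34, Bak1 from 0.12 to 0.39 and Bcl2l1 from 0.13 to 0.46.

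Over all detected probes 321 were past the threshold. The count was 96 without a filter on dim probes, where more probes are tested, 177 with the slide as a block, 594 by the methods' t-test without adjustment and 35 by that test with it, and with each mouse left out it lay from 124 to 242 (163 without control mouse 1, 124 without control mouse 2, 145 without control mouse 3 and 135 without TCE mouse 1), fits that rest on fewer mice. With the replicate number as a block it was 63, and the members' counts were 0. The mice share only a number: deviations from the group means correlated across probes at 0.090, 0.0066 and -0.092 for mice 1, 2 and 3, and probes are not independent replicates. Signal over background limits Bcl2 and leaves Bcl2l11 without a value.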
